A study of Mus musculus with 64 samples.

Results

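The transcriptomes of bone marrow-derived macrophages (BMMs) from Ahr+/+ mice were compared directly between 2 ligands of the aryl hydrocarbon receptor (AhR), benzo[a]pyrene (BaP) and indole-3-carbinol (I3C). Members were all libraries labelled as wild type, exposed to BaP or I3C and activated, which gave 16 of the 64 RNA sequencing libraries of the series, with 4 for each ligand at 3 h and 4 at 20 h. BMMs were derived from 4 female Ahr+/+ C57BL/6JRj mice of 8 to 12 weeks of age. All cultures were differentiated in medium of L929 fibroblasts as the source of M-CSF, exposed for 6 h to 1 µM BaP or 10 µM I3C, and then activated with 10000000 heat-killed Salmonella bacteria of the serovar Enteritidis (hk S.E.) per ml for 3 h or 20 h. Activated Ahr+/+ BMMs kept in 0.01% DMSO (4 libraries per time point) gave the level without ligand. The same exposures in BMMs of 4 Ahr-/- mice, bought from another supplier and back-crossed to the Ahr+/+ strain, gave the difference between the exposures without functional AhR. Because I3C was given at 10 times the concentration of BaP, the comparison is between 2 exposures as used in the study, not between equal doses.

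AhR is a ligand-activated transcription factor of the bHLH-PAS family that resides in the cytosol with chaperones. After ligand binding it enters the nucleus, dimerizes with ARNT and binds response elements with the core GCGTG near target genes such as Cyp1a1, Ahrr and Tiparp. BaP, a polycyclic aromatic hydrocarbon of combustion products, is a xenobiotic ligand of high affinity, whereas I3C, which is released from cruciferous vegetables, is a nutritional ligand of low affinity. Macrophages express AhR, and its ligands alter their cytokine production and xenobiotic metabolism. The question addressed here was which genes respond differently to the 2 ligands in otherwise equally treated Ahr+/+ BMMs.

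Promoter sequences are shown for Ahrr, a canonical AhR target with higher levels after BaP at 3 h, and for 4 protein-coding genes that were higher after BaP than after I3C at 20 h. These 4 had the largest differences among the genes whose window held the AhR core GCGTG. Genes with larger differences but without the core, or without a window, are not shown. Where a gene had several windows, the one with most matches is given. A match in each sequence was thus a condition of display and is not a result. Each is the 250 bases before the RefSeq gene start (build GRCm38.p6), written 5′ to 3′ on the strand of the gene, with the AhR core GCGTG or its reverse complement CACGC in capitals. The windows were chr13:74292332-74292581 (minus strand) for Ahrr, chr11:108343889-108344138 (minus) for Prkca, chr9:22475465-22475714 (plus) for Bbs9, chr13:32338545-32338794 (minus) for Gmds and chr5:110879553-110879802 (plus) for Ttc28.
Ahrr: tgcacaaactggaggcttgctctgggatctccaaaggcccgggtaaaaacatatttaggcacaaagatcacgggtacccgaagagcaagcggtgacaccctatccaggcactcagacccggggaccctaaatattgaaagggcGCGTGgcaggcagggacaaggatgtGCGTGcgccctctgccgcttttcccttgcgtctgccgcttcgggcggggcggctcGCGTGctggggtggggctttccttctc
Prkca: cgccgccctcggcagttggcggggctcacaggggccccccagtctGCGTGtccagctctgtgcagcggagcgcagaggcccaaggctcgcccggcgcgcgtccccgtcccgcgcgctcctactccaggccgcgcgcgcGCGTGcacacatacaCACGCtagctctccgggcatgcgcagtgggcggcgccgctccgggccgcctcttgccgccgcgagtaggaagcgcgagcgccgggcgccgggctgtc
Bbs9: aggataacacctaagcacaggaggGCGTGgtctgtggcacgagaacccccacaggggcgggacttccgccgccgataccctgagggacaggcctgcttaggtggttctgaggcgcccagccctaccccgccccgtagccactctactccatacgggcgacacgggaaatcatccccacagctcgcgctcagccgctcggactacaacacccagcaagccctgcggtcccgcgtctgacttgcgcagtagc
Gmds: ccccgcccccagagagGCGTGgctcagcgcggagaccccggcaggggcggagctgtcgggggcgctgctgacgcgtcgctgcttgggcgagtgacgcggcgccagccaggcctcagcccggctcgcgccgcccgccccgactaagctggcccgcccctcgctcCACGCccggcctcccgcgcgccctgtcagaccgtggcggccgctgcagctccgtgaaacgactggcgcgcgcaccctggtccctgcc
Ttc28: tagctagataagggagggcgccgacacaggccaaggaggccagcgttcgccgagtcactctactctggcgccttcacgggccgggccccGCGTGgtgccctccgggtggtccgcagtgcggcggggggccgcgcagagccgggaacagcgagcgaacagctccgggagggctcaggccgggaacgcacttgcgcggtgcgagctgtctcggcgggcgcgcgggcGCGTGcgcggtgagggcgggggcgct
Ahrr and Prkca held 3 matches each, Gmds and Ttc28 held 2 and Bbs9 held 1. The core was common in all promoters: on either strand it was present in 49.9% of the 9509 protein-coding genes tested that had a window. Of the protein-coding genes called higher after BaP at 20 h, 42 had a window and 20 of these (47.6%) held the core. Of those called lower, 22 had a window and 12 (54.5%) held it. These are matches of letters in a short window and do not show binding.

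Raw read counts per gene were analysed with edgeR's quasi-likelihood test over all 64 libraries, with same-numbered libraries of a genotype and time point as pairs, and a gene was called a differentially expressed gene (DEG) at a Benjamini-Hochberg adjusted p below 0.01 over 14537 genes tested. Levels are given in CPM (reads of a gene scaled to a common number of reads on genes per library, corrected for library composition) in the order of replicate 1 to 4, and differences as log2 fold changes (log2-FC) of BaP over I3C with their standard error (SE). The libraries held between 12804830 and 24373331 reads on genes at 3 h and between 21475497 and 46162784 at 20 h, and at 20 h the BaP library was the deeper one in all 4 pairs. Sums of cell type markers were scaled to the reads on genes of each library only, without the correction for library composition. All 8 macrophage markers were expressed in each group, with a summed level at 20 h of 18500 to 22440 CPM after BaP and 20250 to 23740 CPM after I3C. The 4 erythroid markers were at 0, and the 10 neutrophil markers summed to 18 to 39.2 CPM after BaP and 20.8 to 43.7 CPM after I3C at 20 h. At 3 h the neutrophil sums were higher, with 143.4 to 183.2 CPM after BaP and 134.7 to 218.5 CPM after I3C. The 5 dendritic cell markers summed to 15.55 to 24.8 CPM after BaP and 16.82 to 29.13 CPM after I3C at 20 h. At 3 h these sums were 2.087 to 5.798 and 2.502 to 3.487 CPM. Whole-gene counts of Ahr did not separate the genotypes in the direction of a deletion: activated DMSO libraries at 20 h held 24.1, 21.3, 25.9 and 28.1 CPM when labelled Ahr-/- and 14.9, 12.7, 12.7 and 11.9 CPM when labelled Ahr+/+. The AhR target Ahrr, in contrast, stayed at or below 0.551 CPM after either ligand in the libraries labelled Ahr-/- at 3 h. At 20 h the activated libraries of the genotypes also carry different first digits in their identifiers. Genotype and identifier series therefore cannot be told apart for these Ahr counts at 20 h. At 3 h some activated DMSO libraries of both genotypes share their first digits, but their Ahr levels are not given here. In such bulk samples, fewer cells of a type and less RNA per cell cannot be told apart.

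At 20 h, BaP and I3C differed in 130 of 14537 genes (0.894%), of which 101 (0.695% of genes tested) were higher and 29 (0.199%) lower after BaP. Without the pairing 41 genes were called, all of them higher after BaP and all among the 130, and with any 1 library left out 72 to 108 genes were called. The higher DEGs comprised 64 protein-coding genes, 36 processed pseudogenes and the chemokine gene Cxcl11, which is annotated as a polymorphic pseudogene in this strain. All lower DEGs were protein-coding. The directions also differed in size: the 64 higher protein-coding genes had a median log2-FC of 0.76 (range 0.35 to 2.59), while the 29 lower genes had a median of -0.31 (range -0.58 to -0.19). Of the higher DEGs, 56 exceeded a log2-FC of 1, and none of the lower DEGs fell below -1.

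The protein-coding genes with the largest excess of BaP over I3C at 20 h were mostly very long genes of diverse function. Among protein-coding genes named here, the largest difference with more than 10 reads over the 4 I3C libraries was found for Prkg1. This gene encodes a cGMP-dependent protein kinase and spans 1200 kb at chr19:30564489-31765033 (mm10). Prkg1 was present at 2.97, 2.98, 1.31 and 3.51 CPM after BaP and at 0.512, 0.289, 0.189 and 0.865 CPM after I3C. Each BaP library lay above every I3C library. The log2-FC was 2.51 (SE 0.24, adjusted p = 1.54e-09), and the 4 I3C libraries together held 49 reads against 356 after BaP. With DMSO alone the level was 3.68, 3.25, 1.01 and 3.02 CPM, so the BaP libraries lay within the DMSO range and the I3C libraries below it.

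Esr1, encoding estrogen receptor alpha (chr10:4611593-5005614), behaved alike. It was measured at 2.28, 2.69, 1.70 and 1.54 CPM after BaP and at 0.606, 0.413, 0.603 and 0.499 CPM after I3C (log2-FC 1.92, SE 0.24, adjusted p = 2.38e-07). The 2 groups did not overlap, and the DMSO libraries held 2.16, 1.42, 1.92 and 1.24 CPM. The endosomal sodium/proton exchanger gene Slc9a9 (561 kb, chr9:94669909-95230445) was found at 2.13, 2.73, 1.88 and 1.61 CPM after BaP and at 0.745, 0.785, 0.415 and 0.499 CPM after I3C (log2-FC 1.77, SE 0.21, adjusted p = 6.68e-08). Again all BaP libraries were higher than all I3C libraries. Against DMSO, Slc9a9 had a log2-FC of 0.33 after BaP and of -1.44 after I3C, which are comparisons that share their DMSO libraries.

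Gmds, whose product is the GDP-mannose dehydratase of GDP-fucose synthesis, spans 519 kb (chr13:31819579-32338740). Its level was 2.86, 3.66, 4.27 and 3.76 CPM after BaP, 1.44, 1.53, 1.47 and 1.26 CPM after I3C and 3.82, 4.45, 4.87 and 5.56 CPM with DMSO. I3C libraries were thus the lowest and DMSO libraries mostly the highest. BaP exceeded I3C with a log2-FC of 1.36 (SE 0.15, adjusted p = 2.19e-08). A smaller difference in a more abundant gene was seen for Exoc4, a subunit of the exocyst that tethers secretory vesicles. It was present at 32.9, 33.3, 37.8 and 32.3 CPM after BaP and at 23, 19.2, 25.4 and 20.9 CPM after I3C (log2-FC 0.62, adjusted p = 1.54e-09).

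Further genes with log2-FC above 1 belonged to many classes of proteins. Signalling proteins were encoded by Prkca (protein kinase C alpha, 2.01, adjusted p = 0.0078), Ppm1l (a protein phosphatase, 1.65, adjusted p = 0.00101) and Arhgap15 (a GTPase-activating protein for Rac, 1.44, adjusted p = 1.52e-08). Nuclear proteins were encoded by Nfia (a transcription factor, 1.99, adjusted p = 0.0078) and Smyd3 (a lysine methyltransferase, 1.42, adjusted p = 7.41e-09). Others were the BBSome subunit Bbs9 (1.69, adjusted p = 1.03e-06), the formin Diaph3 (1.67, adjusted p = 0.00194), Ttc28 (1.34, adjusted p = 0.000622) and the phospholipid flippase Atp8a2 (2.59, adjusted p = 0.00287), for which the 4 I3C libraries held only 10 reads in all. Of the 15 genes with the largest log2-FC, which include those described so far except Exoc4, only Ppm1l was shorter than 300 kb (244 kb). The groups did not overlap for any of the 15, as the rule for naming them required. Over all genes tested, the 4 BaP libraries lay above the 4 I3C libraries in 3.21% and below them in 2.70%. Some of these calls were less firm: Prkca, Nfia and Diaph3 were lost without the pairing (adjusted p = 0.014, 0.0189 and 0.0152 in edgeR's quasi-likelihood test). Leaving out a single library ended the call of Prkca for all but I3C replicate 3 (adjusted p up to 0.0648), of Nfia for all but BaP replicates 3 and 4 (up to 0.0905), of Atp8a2 for BaP replicates 1 and 4 and I3C replicates 1, 3 and 4 (up to 0.032), of Diaph3 for BaP replicate 3 and I3C replicate 4 (up to 0.021), of Ppm1l for I3C replicate 2 (0.0103) and of Ttc28 for I3C replicate 3 (0.0149).

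**Figure D1:**
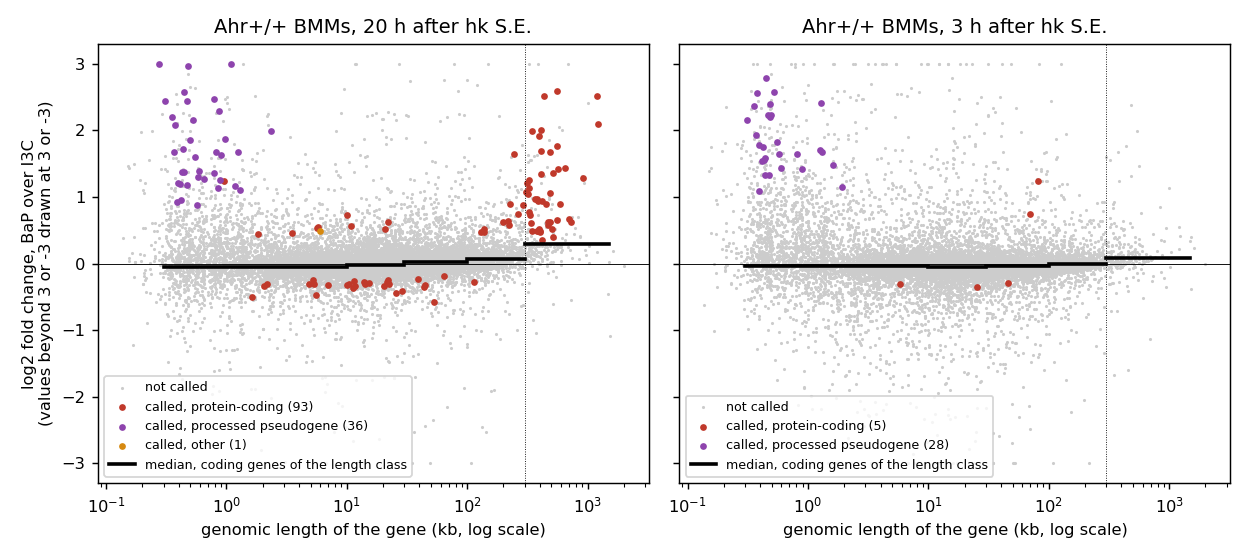
Log2-FC of BaP over I3C in Ahr+/+ BMMs (y axis) against the genomic length of each tested gene in kb (x axis, log scale) at 20 h and at 3 h; gray points are genes not called, red are called protein-coding genes, purple called processed pseudogenes and orange the called gene of another type, black lines are medians of protein-coding genes per length class, the dotted line marks 300 kb, and values beyond 3 are drawn at 3. At 20 h the median rises from -0.05 below 10 kb to 0.29 above 300 kb, whereas at 3 h it is 0.09 above 300 kb.

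Genomic length, a property that played no part in the choice of the libraries, was then described for all protein-coding genes, with classes chosen after values were seen. Median log2-FC of BaP over I3C at 20 h was -0.05 for 2915 genes below 10 kb, -0.02 for 4066 genes of 10 to 30 kb and 0.02 for 3582 genes of 30 to 100 kb. It was 0.07 for 1231 genes of 100 to 300 kb and 0.29 for the 221 genes above 300 kb. In the last class, 91.4% of genes had a positive log2-FC and 45 (20.4%) were called higher, beside 0.695% of all genes tested, whereas none was called lower. Among the 64 protein-coding DEGs with higher levels after BaP, 45 exceeded 300 kb, 10 measured 100 to 300 kb and 9 were shorter. The 29 genes with lower levels had a median length of 14.1 kb.

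The shift of the 221 longest genes was present in each of the 4 pairs of Ahr+/+ libraries at 20 h, with a median difference (log2 CPM of BaP minus I3C) of 0.267, 0.304, 0.293 and 0.303. Beside DMSO, the same genes had pair medians of 0.000, 0.036, 0.077 and 0.197 after BaP and of -0.224, -0.254, -0.214 and -0.146 after I3C. The I3C libraries therefore held less of these transcripts than the DMSO libraries of the same number, and the BaP libraries as much or slightly more. For the 45 called genes the median log2-FC against DMSO was 0.15 after BaP and -0.82 after I3C. Uniquely aligned reads that HTSeq assigned to no gene, because they did not lie wholly in exons on the counted strand, took 3.96% to 5.51% of the reads in the BaP libraries and 3.55% to 4.75% in the I3C libraries at 20 h, with the higher share after BaP in all 4 pairs, and their part in the length pattern was not tested.

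**Figure D2:**
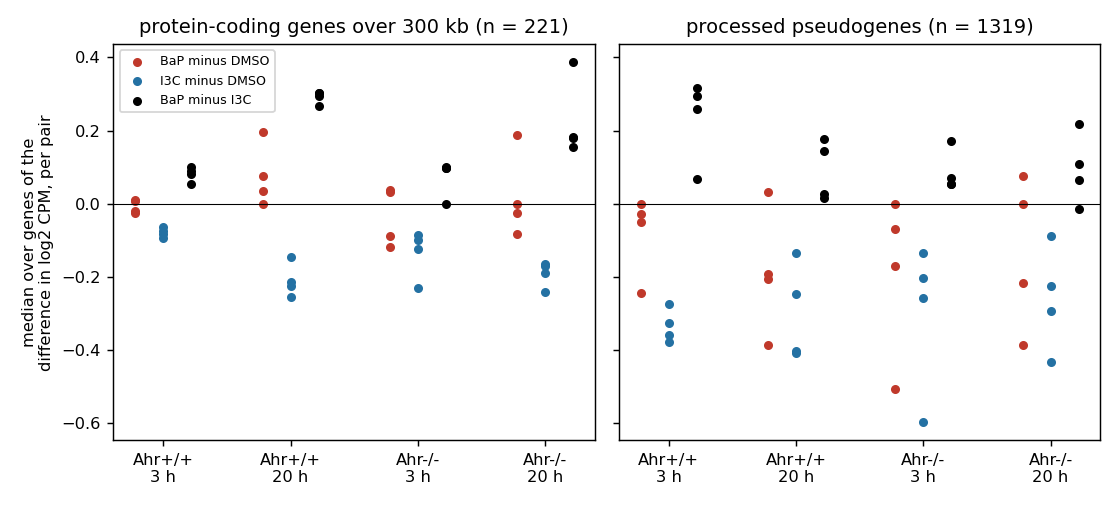
Median difference in log2 CPM over the 221 protein-coding genes longer than 300 kb (left) and over 1319 processed pseudogenes (right), y axis, for each pair of same-numbered libraries, x axis by genotype and time point; red is BaP minus DMSO, blue I3C minus DMSO and black BaP minus I3C. For the long genes at 20 h, the blue points of the Ahr+/+ pairs lie between -0.254 and -0.146 and the black points between 0.267 and 0.304.

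The long genes also differed between the ligands in the absence of AhR. In Ahr-/- BMMs at 20 h, 76 genes (0.523%) were called, 75 (0.516%) of them higher and 1 (0.00688%) lower after BaP, and the 221 genes above 300 kb had a median log2-FC of 0.23 with 35 (15.8%) called. Pair medians were 0.155, 0.388, 0.179 and 0.183. Of the 45 long genes called in Ahr+/+ cells, all 45 had a positive log2-FC in Ahr-/- cells (median 0.69, range 0.04 to 2.1) and 28 were called there too. For the genes described above, the log2-FC in Ahr-/- cells was 1.58 for Prkg1, 1.43 for Esr1, 2.01 for Slc9a9 and 1.32 for Gmds. Of all protein-coding DEGs with higher levels after BaP, 28 were shared, which was 43.8% of the 64 in Ahr+/+ and 71.8% of the 39 in Ahr-/- cells.

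The difference between genotypes itself was tested as an interaction. No gene passed at 20 h or at 3 h with edgeR (0% of genes tested), although 727 and 488 genes had an unadjusted p below 0.05. DESeq2 also called 0 at both time points, and limma on the deposited log2 values called 0 and 1, the latter being Ahrr. The 5 genes with the smallest p at 20 h were Ccnd1, Rhov, Rpl3, Atic and Mxd1, each with an adjusted p of 0.272. Without the low-count filter edgeR called 33 genes at 20 h and 9 at 3 h, and Ccnd1, Rhov and Mxd1 were then among those at 20 h (adjusted p = 8.43e-06, 2.62e-05 and 5.51e-05). A call in Ahr+/+ cells alone is therefore not taken as a difference between the genotypes here. Activated libraries of the genotypes at 20 h also belong to different identifier series, which cannot be told apart from genotype.

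A smaller number of genes with ordinary length was higher after BaP than after I3C at 20 h. The 9 protein-coding DEGs below 100 kb (among them Mxd1, Emp1, Ccl7, Fgl2, Serpina3g, Zfp36, Ccnd1 and Gm6133) had a median log2-FC of 0.55 in Ahr+/+ and of 0.03 in Ahr-/- BMMs. The 9 values in Ahr-/- cells were mixed, from -0.24 to 1.12, with 5 above 0 and 0 called. Against DMSO in Ahr+/+ cells the 9 genes ranged from -0.60 to 1.46 after BaP and from -1.84 to 0.95 after I3C. Grouping these 9 by length, and naming those among them outside the naming rule, was done after their values were seen. They include regulators of the cell cycle, of coagulation and of inflammation, which are described in turn.

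Ccnd1, encoding cyclin D1, which drives the G1 phase (chr7:144929931-144939925), was measured at 12, 14.9, 12 and 13.5 CPM after BaP, at 8.38, 6.45, 9.80 and 7.09 CPM after I3C and at 8.94, 7.21, 10.0 and 6.94 CPM with DMSO. All BaP libraries were higher than all I3C and DMSO libraries, and the I3C and DMSO libraries overlapped. The log2-FC of BaP over I3C was 0.74 (SE 0.12, adjusted p = 0.000146) in Ahr+/+ and -0.23 in Ahr-/- cells, and the difference between genotypes was 0.96 (unadjusted p = 3.11e-05 in edgeR's quasi-likelihood test, adjusted p = 0.272, and 8.43e-06 without the low-count filter). Without the pairing of libraries the adjusted p for Ccnd1 was 0.0351. Of 32 cell cycle genes tested, Ccnd1 was the only one called, and their median log2-FC was 0.05 beside 0.00 over all genes.

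Mxd1, a partner of MAX that opposes MYC, was found at 150, 179, 117 and 157 CPM after BaP, at 102, 91.9, 90.6 and 104 CPM after I3C and at 72.8, 71.8, 67.9 and 66.8 CPM with DMSO. The 3 groups were fully separated, with the highest level after BaP and the lowest with DMSO. BaP exceeded I3C by a log2-FC of 0.63 (SE 0.10, adjusted p = 3.57e-05), and in Ahr-/- cells the value was 0.00. Without the pairing the adjusted p for Mxd1 was 0.167. Zfp36, encoding tristetraprolin, which destabilizes cytokine mRNAs, had a log2-FC of 0.46 (adjusted p = 0.00411). The values for Emp1, an epithelial membrane protein, and for the prothrombinase gene Fgl2 were 0.52 (adjusted p = 0.0066) and 0.55 (adjusted p = 0.000223). These 3 calls were lost without the pairing (adjusted p = 0.354, 0.584 and 0.772). A single library left out also ended the call of Zfp36 for all but BaP replicate 3 (adjusted p up to 0.07), of Emp1 for all but BaP replicates 1 and 3 (up to 0.131) and of Fgl2 for I3C replicate 2 (0.0103).

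Among 30 tested genes for proteases and their inhibitors, 2 were called higher at 20 h, beside 0.695% of all genes tested, and the list's median log2-FC was 0.03. Serpina3g, a serine protease inhibitor of leukocytes, was present at 13.4, 14.5, 9.29 and 15.9 CPM after BaP and at 10.9, 7.81, 7.39 and 10.5 CPM after I3C (log2-FC 0.53, adjusted p = 0.00267). BaP was higher in all 4 pairs, although replicate 3 after BaP lay below 2 I3C libraries. Without the pairing the adjusted p for Serpina3g was 1, and leaving out replicate 2 or replicate 4 of either ligand ended its call (adjusted p up to 0.0571).

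Of 23 chemokine genes tested, 2 were called higher at 20 h, beside 0.695% of all genes tested, while the median of the list was 0.00. Ccl7, which attracts monocytes, reached 491, 643, 360 and 535 CPM after BaP and 410, 443, 276 and 350 CPM after I3C (log2-FC 0.45, adjusted p = 0.00388). Cxcl11, a ligand of CXCR3 induced by interferons, reached 52.7, 80.2, 30.9 and 71.7 CPM after BaP and 48.0, 44.3, 24.4 and 47.5 CPM after I3C (log2-FC 0.49, adjusted p = 0.00988). For both genes BaP was higher in every pair, replicate 3 was the lowest with either ligand, and the groups overlapped. The related chemokine genes Ccl12 and Ccl2 had log2-FC of 0.47 and 0.45 and did not pass the threshold (adjusted p = 0.0514 and 0.0729). The 2 calls were lost without the pairing (adjusted p = 0.992 for Ccl7 and 1 for Cxcl11). They were also lost on leaving out any 1 library except BaP replicate 1, and for Cxcl11 I3C replicate 3 (adjusted p up to 0.0548 and 0.164).

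**Figure D3:**
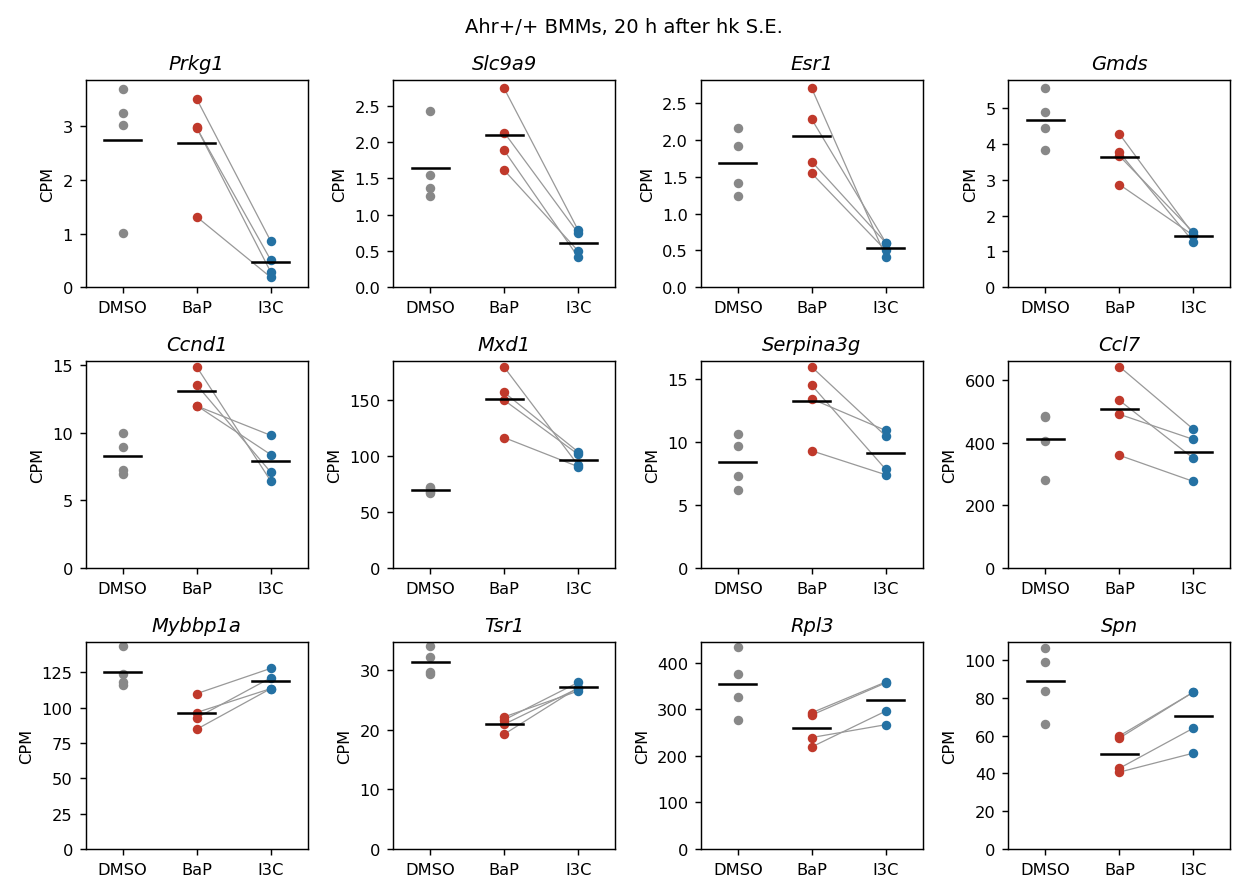
Levels at 20 h in CPM (y axes, one panel per gene) in activated Ahr+/+ BMMs with DMSO, BaP or I3C (x axis); points are libraries, horizontal lines group means, and gray lines join same-numbered BaP and I3C libraries. In the panels of Prkg1, Slc9a9, Esr1 and Gmds the I3C points lie lowest, whereas for Ccnd1, Mxd1 and Serpina3g most BaP points lie highest, and for Mybbp1a, Tsr1, Rpl3 and Spn the BaP points lie lowest within each pair.

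The 29 genes that were lower after BaP than after I3C at 20 h changed little in size. Mybbp1a, encoding a nucleolar protein that binds MYB (chr11:72441355-72451768), was measured at 96.6, 84.7, 110 and 92.8 CPM after BaP, at 113, 113, 128 and 121 CPM after I3C and at 116, 118, 144 and 124 CPM with DMSO. All BaP libraries lay below all I3C and DMSO libraries. The log2-FC was -0.31 (SE 0.05, adjusted p = 0.000241), with -0.39 against DMSO after BaP and -0.07 after I3C. Tsr1, required for maturation of the small ribosomal subunit, was present at 20.9, 19.2, 21.6 and 22.1 CPM after BaP, at 26.9, 27.0, 27.9 and 26.5 CPM after I3C and at 29.2, 32.1, 29.6 and 34 CPM with DMSO (log2-FC -0.37, adjusted p = 0.00648). The 3 groups did not overlap, with the lowest level after BaP.

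Other members with known roles in the nucleolus were Znhit6 (log2-FC -0.42) and Nop56 (-0.31) of the box C/D snoRNP pathway, Pwp2 (-0.31) and Nol6 (-0.32) of the small subunit processome, Ftsj3 (-0.33) in pre-rRNA processing, Rrs1 (-0.34) in assembly of the large subunit, the helicase gene Ddx21 (-0.25) and Polr1b (-0.45), a subunit of RNA polymerase I. Genes of translation itself were Rpl3 (-0.30, adjusted p = 0.000241), Eef1d (-0.30) and Eef1g (-0.27). Rpl3, a protein of the large ribosomal subunit, was found at 239, 219, 293 and 288 CPM after BaP and at 267, 296, 359 and 357 CPM after I3C. BaP was lower in every pair, while replicates 3 and 4 after BaP exceeded replicate 1 after I3C. Of the 81 tested ribosomal protein genes, Rpl3 alone was called, their median log2-FC was -0.13, and 39 were lower with an unadjusted p below 0.05, a level that 12.4% of all genes reached in either direction. Their pair medians were -0.0071, -0.197, -0.179 and -0.162, so that replicate 1 had almost no shift. These groupings by role, and the naming of members beyond the naming rule, were made after the values were seen, and roles are given as background for the named members only.

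The lower genes further included enzymes of nucleotide and methionine metabolism, with Atic (-0.31) and Impdh2 (-0.31) of purine synthesis and Mtap (-0.35) of methionine salvage. Mitochondrial proteins were encoded by Atad3a (-0.34), Gcsh (-0.34), Phb (-0.27) and C1qbp (-0.24), and Cluh (-0.28) binds mRNAs of mitochondrial proteins. Among the remaining members were the DNA repair endonuclease Apex1 (-0.30), the orphan cytochrome P450 Cyp20a1 (-0.32), the export pump Abcc1 (-0.27), the inflammasome sensor Nlrp1a (-0.58, adjusted p = 0.00954) and the thioredoxin reductase Txnrd1 (-0.19, adjusted p = 0.0078). Nlrp1a lost its call in 18 of 22 alternatives, including all 8 that left out a library (adjusted p up to 0.082), and Txnrd1 in 11 of 22, including all that left out a library except BaP replicate 3 (up to 0.117). Spn, encoding the leukocyte sialoglycoprotein CD43, was measured at 40.7, 42.7, 59.9 and 58.7 CPM after BaP, at 50.7, 64, 83.0 and 83.1 CPM after I3C and at 66.4, 83.8, 98.8 and 106 CPM with DMSO. In each numbered set BaP was the lowest and DMSO the highest, and the groups overlapped across sets (log2-FC -0.47, adjusted p = 0.000307). The study's quantitative PCR (RT-qPCR) over a range of ligand doses went the other way, with Spn reported as raised.

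In Ahr-/- BMMs at 20 h the same 29 genes had a median log2-FC of -0.02, with 21 negative and none called. No lower DEG was shared between genotypes, but in the fit with the low-count filter the interaction passed for none of the 29 (median difference -0.29). Against DMSO in Ahr+/+ cells their median was -0.39 after BaP and -0.07 after I3C, and in Ahr-/- cells 0.03 and 0.05. The calls for these genes depended on the analysis chosen. Without the pairing of libraries none of the 29 passed, although 28 kept an unadjusted p below 0.05. With the pairing kept but shared by both time points 8 of the 29 kept their call, and without the low-count filter 9 did. In other fits with the pairing most were kept: 28 with DESeq2 on all 64 libraries, 26 with edgeR on the 24 activated Ahr+/+ libraries, and 28 with edgeR on the 16 of BaP and I3C. These 3 fits called 66, 75 and 163 protein-coding genes lower. The 29 calls also depended on single libraries. Only 4 of the 29 were left without replicate 2 or without replicate 4 of BaP, 6 without replicate 2 and 10 without replicate 1 of I3C. Of those shown with all levels, Mybbp1a, Rpl3 and Spn kept their call without any 1 library, and Tsr1 kept it only without I3C replicate 4 (adjusted p up to 0.0588). Without the pairing the adjusted p was 0.181 for Mybbp1a, 0.269 for Rpl3, 0.166 for Spn and 0.0478 for Tsr1.

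At 3 h, 33 genes (0.227%) differed between the ligands, of which 30 (0.206%) were higher and 3 (0.0206%) lower after BaP. Without the pairing 16 were called, all higher after BaP, and with any 1 library left out 17 to 32 were called. Of the higher DEGs, 28 were processed pseudogenes. The 2 protein-coding genes among them were Ahrr and Elmsan1, neither of which is a long gene. The 3 lower genes were Srxn1, Gsr and Gclm, all members of the list of NRF2 targets.

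Ahrr, the AhR repressor, which competes with AhR for ARNT, had the lowest adjusted p among protein-coding genes at 3 h (chr13:74211118-74292331). Its level at 3 h was 4.18, 6.96, 4.79 and 5.56 CPM after BaP, 2.28, 2.55, 2.49 and 1.83 CPM after I3C and 0.562, 0.566, 0.346 and 0.582 CPM with DMSO. The 3 groups were separated without overlap, with BaP highest and DMSO lowest. At 3 h the BaP libraries lay wholly above those of I3C in 1.93% and wholly below in 2.08% of all genes tested. The log2-FC of BaP over I3C was 1.24 (SE 0.18, adjusted p = 3.19e-05), while the values against DMSO were 3.37 after BaP and 2.13 after I3C. This call was kept under all 22 alternative analyses. In Ahr-/- cells the log2-FC was -0.69 at the low counts given above, and the difference between genotypes was 1.93 (unadjusted p = 0.000308 in edgeR's quasi-likelihood test, adjusted p = 1), whereas limma on the deposited log2 values gave a difference of 0.98 (adjusted p = 0.000977).

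By 20 h the Ahrr level had risen to 17.2, 17.9, 20.7 and 18.9 CPM after BaP and to 14.4, 16.6, 17.1 and 16 CPM after I3C. BaP was higher in each pair, but the log2-FC was 0.22 with a 95% confidence interval of -0.02 to 0.47 and an adjusted p of 0.465. The change from 3 h to 20 h of -1.02 (SE 0.22) did not pass the threshold (adjusted p = 0.026).

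Elmsan1, a subunit of a histone deacetylase complex, was found at 13.8, 17.4, 15.4 and 16.1 CPM after BaP, at 8.39, 8.40, 11.2 and 9.32 CPM after I3C and at 6.26, 6.50, 8.45 and 5.69 CPM with DMSO at 3 h. BaP libraries were all above I3C libraries (log2-FC 0.75, SE 0.15, adjusted p = 0.00546), and at 20 h the log2-FC was 0.01. The call was lost in 9 of 22 alternatives, with an adjusted p of 0.167 without the pairing and of up to 0.0458 on leaving out any 1 library except BaP replicate 3. Il4i1, an amino acid oxidase gene of macrophages, had a log2-FC of 0.42 at 3 h that did not pass (adjusted p = 0.0439).

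Other members of the AhR pathway did not differ detectably between the ligands. Of 17 listed genes, 12 were expressed highly enough to be tested, and Cyp1a1, Cyp1a2, Cyp1b1, Aldh3a1 and Gsta1 were not. Ahrr at 3 h was the only call in the list, whose median log2-FC was 0.00 at 3 h and 0.02 at 20 h. Tiparp, an ADP-ribosyltransferase induced by AhR, reached 107, 120, 128 and 121 CPM after BaP and 108, 106, 104 and 95.6 CPM after I3C at 20 h, with overlapping groups and a log2-FC of 0.21 (95% confidence interval -0.01 to 0.43). The interval for Ugt1a7c, a glucuronosyltransferase gene, was -0.20 to 0.18, and that for Ahr itself -0.54 to 0.06. Nqo1, a quinone reductase gene that responds to both AhR and NRF2, had a log2-FC of -0.38 (-0.69 to -0.06, adjusted p = 0.264) at 20 h and of 0.02 (-0.26 to 0.31) at 3 h.

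**Figure D4:**
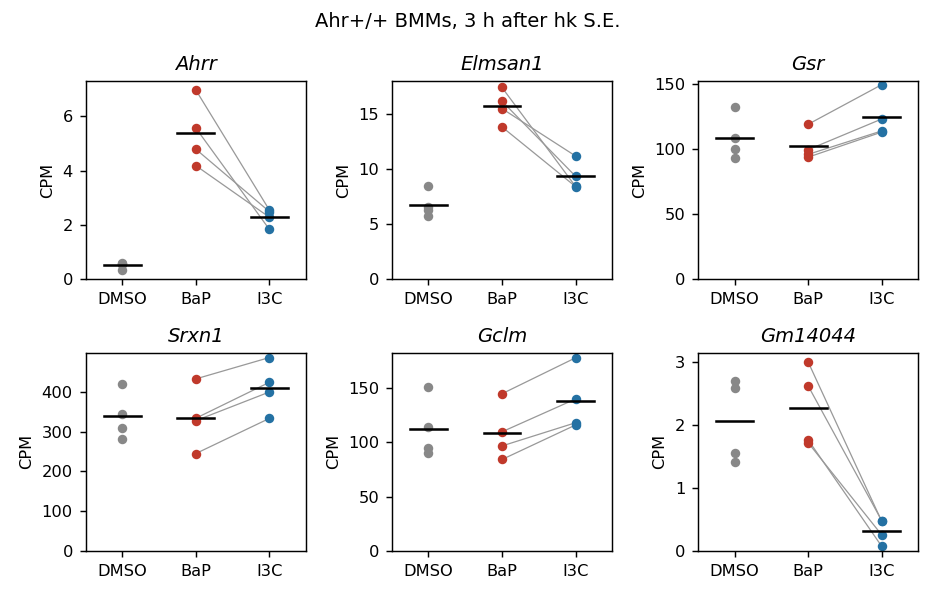
Levels at 3 h in CPM (y axes, one panel per gene) in activated Ahr+/+ BMMs with DMSO, BaP or I3C (x axis); points are libraries, horizontal lines group means, and gray lines join same-numbered BaP and I3C libraries. Ahrr is separated in 3 steps with BaP at 4.18 to 6.96 CPM, each gray line of Gsr, Srxn1 and Gclm rises from BaP to I3C, and the pseudogene Gm14044 falls to at most 0.482 CPM after I3C.

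The NRF2 pathway senses oxidants and electrophiles and restores glutathione and thioredoxin. Of 28 of its genes tested, 3 were called lower after BaP than after I3C at 3 h beside 0.0206% of all genes tested, and the median log2-FC was -0.15 beside -0.03 over all genes. Srxn1, encoding sulfiredoxin, was measured at 334, 245, 433 and 328 CPM after BaP and at 424, 333, 487 and 400 CPM after I3C (log2-FC -0.31, adjusted p = 0.000668). Gsr, encoding glutathione reductase, was measured at 99.4, 93.6, 119 and 95.8 CPM after BaP and at 123, 113, 149 and 114 CPM after I3C (log2-FC -0.29, adjusted p = 0.0022). Gclm, the modifier subunit of the enzyme that starts glutathione synthesis, was measured at 110, 84.2, 145 and 96.6 CPM after BaP and at 140, 116, 178 and 118 CPM after I3C (log2-FC -0.35, adjusted p = 0.00455).

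For each of these 3 genes BaP was lower in all 4 pairs and replicate 3 was the highest with either ligand, so that the groups overlapped. Against DMSO, log2-FC were -0.03 after BaP and 0.28 after I3C for Srxn1, -0.08 and 0.21 for Gsr and -0.05 and 0.30 for Gclm, with the DMSO libraries shared by both. In Ahr-/- cells Srxn1 was the only lower DEG at 3 h (log2-FC -0.26, adjusted p = 0.00971), and Gclm had a log2-FC of -0.31 (adjusted p = 0.0287). Without the pairing none of the 3 was called in Ahr+/+ cells (adjusted p = 0.681, 0.416 and 1 for Srxn1, Gsr and Gclm). Gclm lost its call without any 1 of the 8 libraries (adjusted p up to 0.0718), Gsr without all but BaP replicate 2 and I3C replicate 4 (up to 0.0227), and Srxn1 without replicates 1 and 2 of BaP or 1 and 4 of I3C (up to 0.0516). At 20 h the list's median log2-FC was -0.10 and Txnrd1 was its only call (adjusted p = 0.0078, and 0.92 without the pairing).

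Processed pseudogenes, which are copies of mRNAs inserted elsewhere in the genome, formed the largest class of DEGs at 3 h and a large one at 20 h. Over all 1319 tested, the median log2-FC of BaP over I3C was 0.24 at 3 h and 0.11 at 20 h. At 3 h the 4 pairs had medians of 0.260, 0.0684, 0.32 and 0.295. At 20 h the corresponding medians were 0.143, 0.0162, 0.177 and 0.0275. Replicate 2 thus had the smallest shift at both time points. Because their reads may stem from the parent genes, the identity of these transcripts is uncertain.

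The most strongly separated of these at 3 h was Gm14044 (chr2:130384883-130385329), with 1.76, 1.72, 2.62 and 3.00 CPM after BaP, 0.0736, 0.255, 0.482 and 0.471 CPM after I3C and 1.55, 1.41, 2.70 and 2.59 CPM with DMSO. BaP and DMSO libraries overlapped, and all I3C libraries lay below them (log2-FC 2.78, SE 0.33, adjusted p = 3.2e-07). In Ahr-/- cells Gm14044 had log2-FC of 2.52 at 3 h and 2.44 at 20 h. Gm20302 was listed at 0 in all 4 I3C libraries at 20 h and had 25 reads in the BaP libraries together, which is at least 6.49-fold higher against a floor of 3 reads over the I3C group (adjusted p = 0.00257, and up to 0.0224 without I3C replicate 1, 3 or 4). This bound covers counting error only.

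As a class, the 28 pseudogenes called at 3 h had a median log2-FC of 1.72 (range 1.09 to 2.78), and their median against DMSO was 0.09 after BaP and -1.71 after I3C. The 36 called at 20 h had a median of 1.65, also with Gm20302 set to its bound, and medians of -0.16 and -1.72 against DMSO. Hence the level of the called pseudogenes was low after I3C and near that of DMSO after BaP, but they were chosen on these libraries. Over all 1319 tested, pair medians against DMSO at 20 h were 0.033, -0.192, -0.206 and -0.387 after BaP. After I3C they were -0.135, -0.248, -0.407 and -0.403. At 3 h the values were -0.051, -0.244, 0.000 and -0.027 after BaP and -0.377, -0.327, -0.273 and -0.357 after I3C. Both time points shared 23 of the called pseudogenes, which was 82.1% of those at 3 h and 63.9% of those at 20 h. In Ahr-/- cells at 20 h all 36 were positive with a median of 1.23, and 25 (69.4% of the 36 in either genotype) were called in both. At 3 h, where 21 genes (0.144%) were called in Ahr-/- cells, 20 (0.138%) higher and 1 (0.00688%) lower after BaP, 14 pseudogenes were shared, which was 50.0% of 28 in Ahr+/+ and 77.8% of 18 in Ahr-/- cells. Reads aligned to several places, which are not counted, took 12.8% to 14.2% of reads over the 16 libraries, and their part in the pseudogene pattern was not tested.

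The difference between the ligands itself changed from 3 h to 20 h in 12 genes (0.0825%), all of them protein-coding, longer than 300 kb and with a larger excess of BaP at 20 h. For Slc9a9 the levels at 3 h were 29.6, 33.7, 27.0 and 31.7 CPM after BaP and 28.7, 33.4, 22.1 and 27.6 CPM after I3C, with overlapping groups and a log2-FC of 0.14. The change to 20 h was 1.63 (SE 0.23, adjusted p = 0.000114). Gmds had 12.6, 12, 12.4 and 14.6 CPM after BaP and 12.9, 10.7, 9.15 and 13.0 CPM after I3C at 3 h, and a change of 1.18 (adjusted p = 0.000581). The changes for Arhgap15, Exoc4 and Prkg1 were 1.30, 0.54 and 1.96 (adjusted p = 0.000351, 0.000351 and 0.00135), and the remaining genes included Wwox, Wdpcp, Bbs9, Slc39a11, Msra and Smyd3.

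The levels of Slc9a9 and Gmds had thus fallen from 3 h to 20 h with either ligand, and further after I3C. None of the 12 changes was called without the pairing of libraries (adjusted p from 0.0189 for Slc9a9 to 1 for Prkg1 among the 5 with the smallest p). The 221 genes above 300 kb had a median log2-FC of 0.09 at 3 h, with pair medians of 0.0886, 0.0531, 0.0996 and 0.0819, and 72.9% of them were positive.

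**Figure D5:**
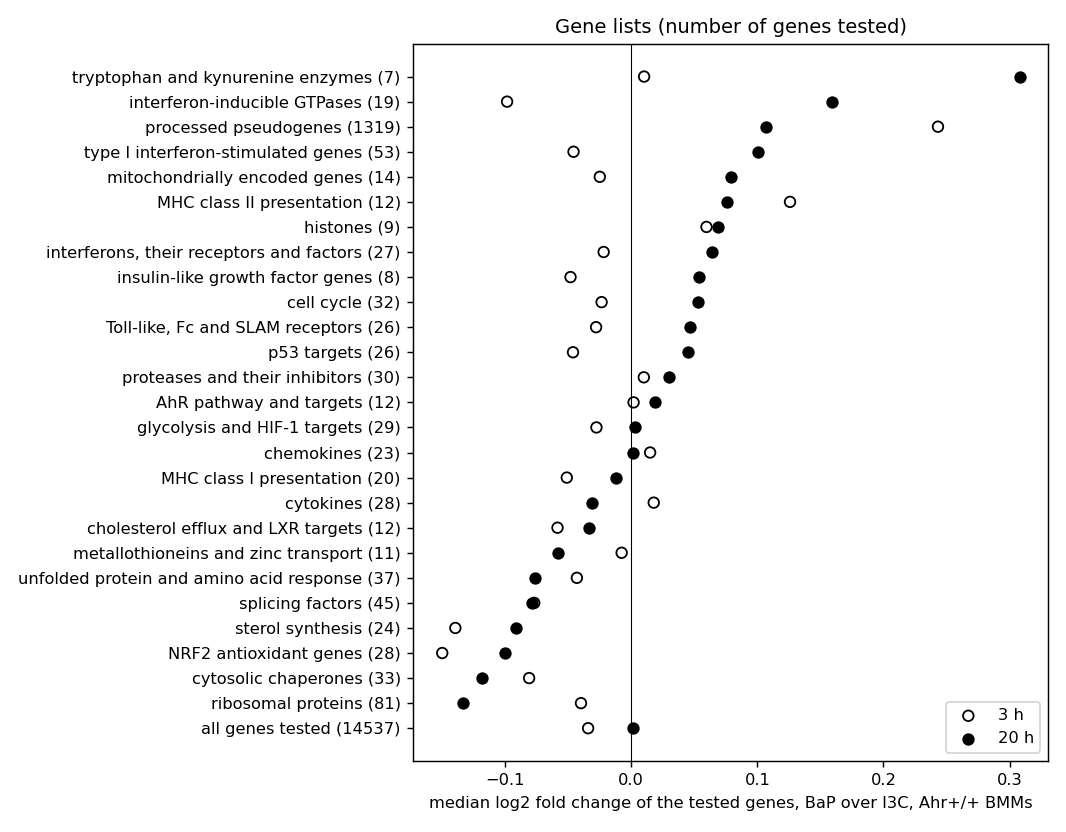
Median log2-FC of BaP over I3C in Ahr+/+ BMMs (x axis) for the tested members of 26 gene lists and for all genes (y axis); open circles are 3 h and filled circles 20 h. Most lists lie near 0, the ribosomal proteins at -0.13 and the chaperones at -0.12 at 20 h lie on the side of I3C, and the interferon-inducible GTPases at 0.16 and the tryptophan enzymes at 0.31 at 20 h on the side of BaP.

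Immune gene lists showed small differences. The 53 tested genes stimulated by type I interferon had a median log2-FC of 0.10 at 20 h and of -0.05 at 3 h, with no gene called, and the medians in the 4 pairs at 20 h were -0.048, 0.184, 0.089 and 0.145. For 19 interferon-inducible GTPases the medians were 0.16 and -0.10, again with no call. Mx1, an antiviral GTPase, had a log2-FC of 0.35 at 20 h (adjusted p = 0.281), and Irf1, an interferon-regulated transcription factor, of -0.02 (95% confidence interval -0.17 to 0.13). The absence of calls applies to the fit reported, since 3 of 22 alternative analyses called Mx1 at 20 h and none called Irf1. None of 28 cytokine genes was called, with 20 h values of -0.19 (-0.52 to 0.13) for Il1b and 0.18 (-0.13 to 0.50) for Il10. Medians for MHC class I and II genes were -0.01 and 0.08 at 20 h, with no calls among 20 and 12 genes.

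Lists of protein homeostasis and metabolism lay slightly below 0 at 20 h. Median log2-FC was -0.12 for 33 chaperones, -0.08 for 37 genes of the unfolded protein and amino acid responses, -0.08 for 45 splicing factors and -0.09 for 24 genes of sterol synthesis, with no gene called in any of them. The 7 tryptophan-metabolizing enzymes had a median of 0.31 at 20 h and of 0.01 at 3 h without a call.

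Mmp8 and Spint1 had marked responses to both ligands and differed little between them. At 20 h, Mmp8, a neutrophil collagenase also made by macrophages, had a log2-FC against DMSO of 1.65 after BaP and of 1.44 after I3C, and the direct log2-FC of 0.21 (95% confidence interval 0.01 to 0.40) did not pass after adjustment (adjusted p = 0.349). For Spint1, an inhibitor of serine proteases, the values were 1.55 and 1.42 with a direct log2-FC of 0.13. Gsta3 and Slpi, in contrast, were reported by the study's RNA sequencing as induced by I3C only. In its RT-qPCR over a range of doses, Gsta3 remained specific to I3C, whereas Slpi rose with both ligands. Gsta3, a glutathione transferase gene, had a direct log2-FC of -0.42 that was not called (adjusted p = 0.0514), and Slpi, a secreted protease inhibitor, had -0.37 (adjusted p = 0.0843). Of 22 alternative analyses, 1 called Gsta3 and 4 called Slpi. Of the 30 genes named by the study, which were chosen on these libraries and are no independent evidence, 29 were tested, and their median log2-FC was 0.18 at 20 h. Spn and Ccl7 were the 2 called at 20 h and Ahrr was the one called at 3 h.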

How the data were processed

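RNA sequencing of 64 libraries (16 groups of 4) was analysed, of which 16 carry the comparison. Per the labels and methods, the authors prepared stranded TruSeq mRNA libraries, demultiplexed with bcl2fastq 2.19.0.316, aligned reads with HISAT2 2.1.0 to mm10 and counted them per GENCODE gene with HTSeq 0.9.1 by strand, only where a read lay wholly in exons. The files deposited by the authors hold raw counts for 55487 genes per library, after 5 summary lines that were left out of library sizes. The authors also deposited variance-stabilized log2 values of DESeq2, which were used only in an alternative. Strand-specific counting without multi-mapped reads leaves genes with near-identical copies uncertain. Gene types, lengths and positions came from a neighbouring GENCODE release, which matched 55394 genes.

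Counts were filtered with filterByExpr (minimum count 10), scaled by TMM (factors 0.761 to 1.34) and fitted with edgeR 4.0.16 in R 4.3.3 (quasi-likelihood F test, 14537 genes, 16 group means, replicate number within genotype and time point as a block, 36 residual degrees of freedom, Benjamini-Hochberg threshold 0.01). Same-numbered libraries were taken as pairs because the comparison was defined that way. The methods name 4 mice per genotype, but not which library came from which mouse, and if libraries of a group were not separate cultures the p-values measure technical spread only. Correlations of the deviations from the group means between same-numbered BaP and I3C libraries in Ahr+/+ cells ranged from 0.174 to 0.319 at 20 h. At 3 h they ranged from 0.0488 to 0.184, and 1 of 4 pairs was not above 0.1. In Ahr-/- cells at 20 h, same-numbered libraries gave 0.3725 to 0.6448. Other pairings within replicates 1 and 2, or within 3 and 4, gave 0.2425 to 0.5769. Pairings across these sets gave -0.6405 to -0.3229, and the signs were the same at 3 h. The Ahr-/- libraries thus fell into 2 sets of replicates, and the cause was not tested. All libraries of the Ahr+/+ comparison at 20 h share the first digits of their library identifier, and at 3 h BaP replicate 1 and I3C replicate 2 carry other digits. All Ahr-/- libraries at 20 h share different first digits. Among activated libraries at 20 h, genotype and identifier series therefore cannot be told apart. Library identifier was an alternative covariate.

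Named genes were, per time point, up to 15 protein-coding DEGs per direction with the largest log2-FC whose groups did not overlap, up to 2 of other types, the genes named by the study, all tested members of the AhR list, up to 4 genes of smallest p per further list, and the 5 of smallest p for the change in time and the interactions. Other genes were named after their values were seen, and some genes that meet the rule are not reported here. Members, lists and tests were chosen with earlier results of these data known. Scripts were tested on simulated data. Alternatives included DESeq2 1.42.0, limma 3.58.1, other filters, scalings and sample sets, and leaving out each library. CPM used TMM-scaled library sizes, except for the marker sums, which used the reads on genes without TMM factors. Depth sets the precision at low counts, and intervals given are 95% confidence intervals of the fit.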

Additional observations from a re-analysis of the deposited data

Results flagged for a closer look

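Of 188 groups of 4 libraries examined for the named genes, 6 held a library that stood apart from the other 3 (by Dixon's critical value for the gap to the next library), and chance gives about 1 group in 20. Cxcl11 was at 24.4 CPM in I3C replicate 3 at 20 h, below the other I3C libraries, and Mx1 was at 517 CPM in the same library. Apex1 at 17.5 CPM and Arnt at 72.7 CPM stood apart in BaP replicate 2 at 20 h. Gsr was at 128 CPM in BaP replicate 3 at 20 h, and Il10 was at 22.3 CPM in BaP replicate 2 at 3 h.

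The difference between the ligands itself differed between the time points, by an interaction term in edgeR's quasi-likelihood test, for the 5 genes with the smallest p. The log2-FC of BaP over I3C at 20 h minus that at 3 h was 1.63 for Slc9a9, 1.30 for Arhgap15, 0.54 for Exoc4, 1.18 for Gmds and 1.96 for Prkg1.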

How the results depend on the processing

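The number of DEGs depended on how the spread was estimated. At 20 h, 130 genes became 41 with no replicate block (100% higher after BaP), 77 with a block shared by both time points (89.6%), 203 with DESeq2 (67.0%), 242 without the low-count filter (88.4%), 305, 487 (65.3%) and, with DESeq2, 334 (64.1%) when 24 or 16 Ahr+/+ libraries were fitted, and 295 at a threshold of 0.05 (66.1%), beside 77.7% in the fit reported. Leaving out 1 library gave 72 to 108, with 73 and 75 without BaP replicates 2 and 4 and 73, 72 and 80 without I3C replicates 1, 2 and 3. At 3 h, 33 genes became 16 with no replicate block, 57 with DESeq2, 102 without the filter, 89 with limma on the log2 values, 59, 73 and, with DESeq2, 63 on fewer libraries, 72 at the threshold of 0.05, and 17 to 32 with 1 library left out (21 without BaP replicate 4, 17 and 21 without I3C replicates 1 and 3). The 12 changes between time points became 0 without the block, 3 with the shared block, 46 without the filter, 7 with limma, and 31 and 34 on 16 libraries. In Ahr-/- cells, 76 became 27, 165 and 46 (no block, no filter, limma) at 20 h, and 21 became 3, 7, 64 and 9 (no block, shared block, no filter, identifier covariate) at 3 h. Without the filter the interaction with genotype called 33 genes at 20 h and 9 at 3 h, and limma called 1 at 3 h. The cause of these shifts was not tested, other than fewer samples or genes by construction.

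By class, the calls kept with no replicate block at 20 h were 28 of 45 long genes, 3 of 19 other protein-coding genes, 10 of 36 pseudogenes and 0 of 29 lower genes. Of 63 called results for named genes, 10 kept their call in all alternatives run (Prkg1, Esr1, Slc9a9, Bbs9, Arhgap15, Smyd3, Gmds and Exoc4 at 20 h, Ahrr and Gm14044 at 3 h). Over all 63, 977 of 1329 alternatives kept the call and 352 lost it, with no reversal of direction. The only reversal among results not called was Il10 at 20 h, with a log2-FC of -0.023 without I3C replicate 4 and of up to 0.33 without other libraries (0.18 with all). Low depth limits the long genes after I3C, where Prkg1 had 5 to 26 reads per library at 20 h.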
